A study of Mus musculus with 4 samples.

Results

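The genes of the mouse proteasome were taken as every listed symbol that starts with Psm, a letter from a to g and a digit, which gave 49 of 12408 genes. By role they fall into 15 genes of the core particle (8 alpha and 7 constitutive beta subunits), 3 immunoproteasome subunits, 17 genes of the regulatory particle and 14 others (assembly chaperones, activators, the inhibitor Psmf1 and further matches). Psmc3ip, a meiotic recombination cofactor, matches the symbol pattern and is no proteasome subunit, and Psme2b is a near copy of Psme2, so reads of that pair may be assigned to either. The thymus subunit Psmb11 was not among the listed genes. Adrm1 and Shfm1, subunits of the regulatory particle, do not match the symbol pattern and were counted among the partners outside the set. Statements on the regulatory particle, base and lid cover the matching genes only. Reads of 7 genes (Psma3, Psma6, Psmd10, Psmd4, Psme2, Psmf1 and Psmg4) came in parts, which means that they were shared between genes or positions, and their levels are less certain.

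RNA was sequenced from whole hearts of 4 C57BL/6 mice, all 3 months old. Libraries labelled CT came from mice with floxed WW45 (symbol Sav1, an adaptor of the Hippo kinases), genotype WW45 flox/flox. Those labelled cKO carried the same floxed alleles plus alpha-MHC-CRE, in which the alpha-myosin heavy chain promoter drives Cre in cardiomyocytes and not in the other cells of the heart. For each genotype 1 mouse was at baseline and 1 had transverse aortic constriction (TAC) for 4 weeks, a banding of the aortic arch that makes the heart pump against pressure. No library was labelled as sham-operated, so the operation and the constriction cannot be told apart, and none carried Cre without floxed alleles. Every group is 1 mouse, so the differences between libraries below have no replicate check, and differences between mice and between conditions cannot be told apart.

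The proteasome is the main protease of the cytosol and nucleus and degrades proteins tagged with ubiquitin. Its core particle is a barrel of alpha rings, which gate the entry, around beta rings, which hold the proteolytic sites, and the regulatory particle docks on the alpha ring, where its lid takes off ubiquitin and its base of ATPases unfolds the substrate. In cells exposed to interferon, the immunosubunits Psmb9, Psmb10 and Psmb8 are built in instead of the catalytic subunits Psmb6, Psmb7 and Psmb5, and in the heart the proteasome turns over sarcomere and signalling proteins.

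Psmd4, which had the largest TAC ratio of the regulatory particle between the libraries labelled cKO, and 3 further subunits are shown with stretches before their RefSeq start (GRCm38.p6) that hold one of a pair of short regulatory motifs. The capitals mark the match, read 5′ to 3′ along the gene's strand. The first is the core of the interferon regulatory factor element, GAAANNGAA, and the second is the core of the antioxidant response element, TGACNNNGC, which the transcription factor Nfe2l1 of the proteasome genes can bind. Both were searched on both strands in the 250 bases before the start, and in these 4 stretches the match lies on the strand opposite to the gene.
Psmd4, interferon element core, chr3:95042660-95042718, minus strand: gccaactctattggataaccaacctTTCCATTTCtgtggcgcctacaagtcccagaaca
Psmb3, interferon element core, chr11:97703247-97703305, plus strand: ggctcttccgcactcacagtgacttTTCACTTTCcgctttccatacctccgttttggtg
Psmc6, antioxidant element core, chr14:45329574-45329630, plus strand: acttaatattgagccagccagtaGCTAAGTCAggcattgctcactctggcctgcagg
Psmd12, antioxidant element core, chr11:107479278-107479314, plus strand: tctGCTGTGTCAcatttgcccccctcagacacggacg

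Of the 49 genes, 41 had a RefSeq promoter, 44 promoters in all. The antioxidant core stood in 5 of the 44 (11.4%), those of Psmb5, Psmb6, Psmc6, Psmd12 and Psmd9, against 10.2% of all 32851 promoters and 11.8% of the 12210 promoters of listed genes. The interferon core stood in 3 of 44 (6.82%), those of Psmb3, Psmd4 and Psmd9, against 7.13% and 6.26%. The windows of the 3 immunosubunit genes held neither set of letters. Both shares lie near those of all promoters, and a match describes letters, not a binding site.

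The deposited values are log2 CPM, that is, reads scaled to a common library size, from which reads were recovered. The libraries held 1587840 to 2796547 reads, and the median gene 30 to 48. The intervals below are 95% intervals from the reads and cover counting error only, not differences between mice. PCR copies are not independent molecules, so the intervals may be too narrow even for counting error. Sav1 itself was at 49.3 CPM at CT baseline, 35.4 under CT TAC, 39.8 in the library labelled cKO baseline and 46.2 in the one labelled cKO TAC. Under TAC the interval of cKO over CT (fold 0.941 to 1.81) included 1 with the higher value on the cKO side, and at baseline the interval of cKO over CT (0.590 to 1.09) included 1. The gene-level value covers all exons and all cell types of the heart, and the genotype is therefore given as labelled. All 8 cardiomyocyte markers were listed, at 71735 to 103430 CPM in sum.

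Proteasome transcripts together made up 0.616% of all reads at CT baseline, 0.706% under CT TAC, 0.616% in the library labelled cKO baseline and 0.760% in the one labelled cKO TAC. Both TAC libraries were above both baseline libraries. In sum the 49 genes were higher in the TAC library by a log2 ratio of 0.19 (0.16 to 0.22) in CT and 0.29 (0.25 to 0.33) in the pair labelled cKO. Gene by gene the shift was small: 30 of 49 ratios lay above 0 in CT, with a median of 0.10, and 39 of 49 in the pair labelled cKO, with a median of 0.31. Over all listed genes 50.8% and 49.8% lay above 0, with medians of 0.01 and -0.00. In whole hearts, fewer cells of a type and less RNA per cell cannot be told apart.

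**Figure D1:**
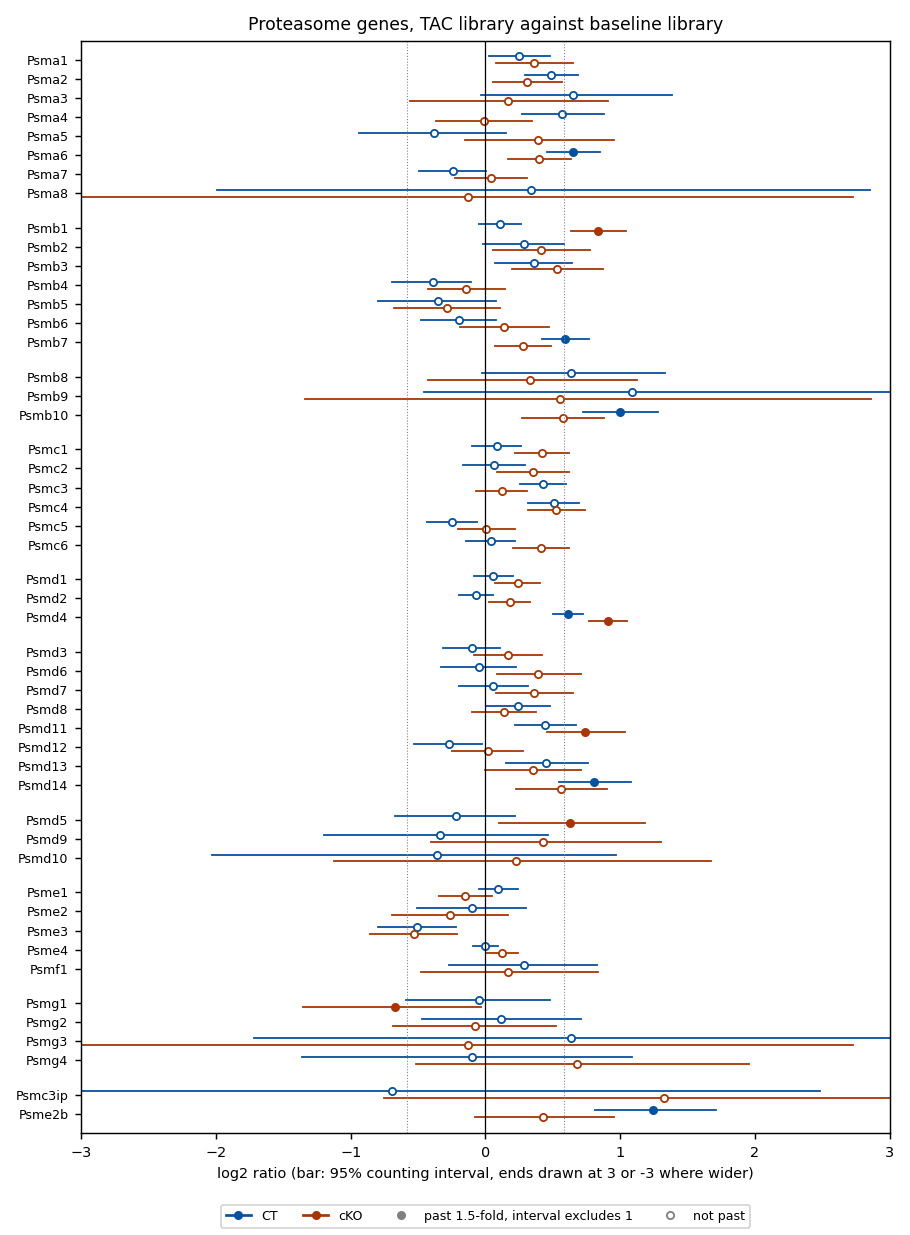
The log2 ratio of the TAC library over the baseline library (x axis) is plotted for each proteasome gene (y axis, grouped by role) in CT (blue) and in the pair labelled cKO (brown); bars are 95% counting intervals, filled points are at least 1.5-fold apart with an interval that excludes 1, and dotted lines mark 1.5-fold. Psmd4 is filled in both pairs, and in the pair labelled cKO all 17 regulatory particle genes of the set (Psmc1 to Psmd14) lie above 0.

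A gene was counted as past the fold when it was at least 1.5-fold apart on the deposited scale and its interval excluded 1. In CT, 6 of the 49 genes were past it in the TAC library on the higher side (Psma6, Psmb7, Psmb10, Psmd4, Psmd14 and Psme2b), where 11.4% of all genes were, and 0 on the lower side, where 9.81% were. In the pair labelled cKO, 4 were higher (Psmb1, Psmd4, Psmd5 and Psmd11) against 7.48% of all genes, and 1 lower (Psmg1) against 6.54%. On the higher side both shares of proteasome genes were near those of all genes. At 2-fold, 1 gene was past in CT, Psme2b, and 0 in the pair labelled cKO, against 10.7% and 6.52% of all genes in either direction. Of the proteasome genes, none but Psme2b and the sparsely covered Psmb9 and Psmc3ip lay more than 1.00 from 0 in either pair. Among genes with a mean CPM of at least 20, the quartiles in CT were -0.10 and 0.44 for proteasome genes. For all genes of that level they were -0.33 and 0.33. In the pair labelled cKO the quartiles were 0.03 and 0.41 for proteasome genes, and -0.30 and 0.28 for all genes.

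Across both genotypes the 2 TAC ratios, which share no library, were both above 0 for 25 genes (51.0%), against 31.4% of all listed genes. Both lay below 0 for 5 genes. They were on the same side of 0 for 61.2% of the proteasome genes and for 62.1% of all listed genes, so the pairs were no more alike than for genes in general. Among the 40 proteasome genes with a mean CPM of at least 20, counting error is smaller. There the 2 ratios were both above 0 for 22 (55.0%), against 31.6% of the 5931 genes at that level. The shares on the same side of 0 were 67.5% and 66.2%. Over these 40 genes, which share libraries and depth, the ratios of the 2 pairs had a Pearson correlation of 0.516 and a Spearman correlation of 0.536, against 0.476 and 0.428 over all genes of that level. The correlation among proteasome genes was thus close to that among genes of this level in general.

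**Figure D2:**
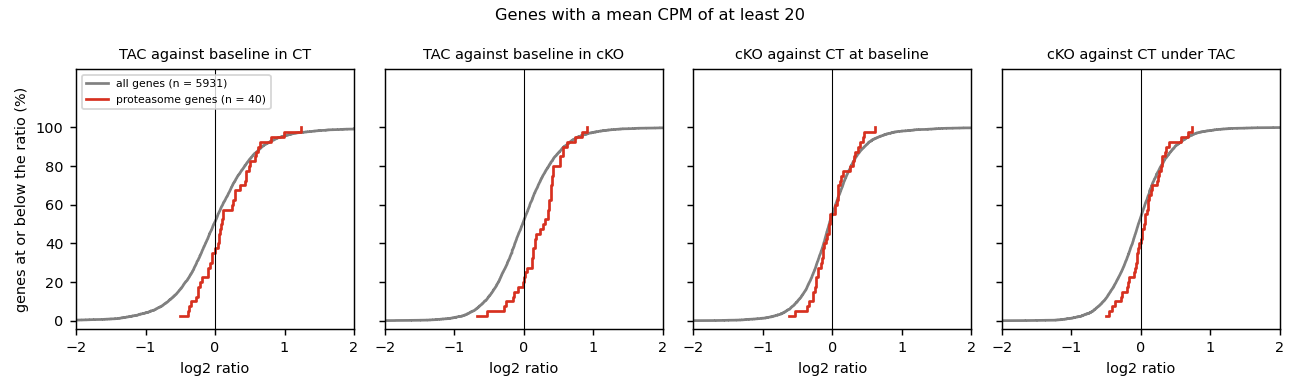
The share of genes at or below a log2 ratio (y axis, percent) is plotted against that ratio (x axis) for the 40 proteasome genes (red) and all 5931 genes (grey) with a mean CPM of at least 20, in each pair of libraries as labelled. The red line runs to the right of the grey line through the middle of both TAC panels, with 32 of 40 proteasome genes above 0 in the pair labelled cKO.

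The 4 libraries were also fitted together with limma, with terms for surgery and genotype, 1 residual degree of freedom and 10.1 prior degrees of freedom borrowed from all genes. At a Benjamini-Hochberg adjusted p under 0.05 over 12408 genes, limma called 0 of the 49 proteasome genes for TAC, where 1.82% of all genes were called, and 0 for genotype, where 0.0242% were. At an unadjusted p under 0.05, limma put 10 proteasome genes higher and 1 lower (Psme3) under TAC, with 16.2% of all genes, and 3 higher and 0 lower (Psmb4, Psmb5 and Psmd8 higher) for cKO, with 7.77%. Psmd4 came closest to the threshold (limma log2 difference 0.76, SE 0.17, adjusted p 0.0525). When genes under a mean CPM of 5 were left out, 1 proteasome gene was called for TAC, with an adjusted p of 0.0322. The p-values rest mostly on variance shared across genes, since no group has a second mouse.

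Among the alpha subunits, which form the outer rings of the core, 6 of 8 had a TAC ratio above 0 in each genotype pair. Psma6 (chromosome 12, 55384222 to 55418454, GRCm38) was at 150 CPM at CT baseline, 236 under CT TAC, 157 in the library labelled cKO baseline and 207 in the one labelled cKO TAC. Both TAC libraries stood above both baseline libraries, by a log2 ratio of 0.65 (fold 1.37 to 1.80) in CT and 0.40 (1.12 to 1.55) in the pair labelled cKO. Psma3 had a similar ratio of 0.65 in CT, from shared reads, with an interval (0.975 to 2.61) that included 1. Psma2 went from 156 to 219 CPM in CT and from 136 to 169 in the pair labelled cKO, with both intervals above 1. The lowest alpha ratio in CT was that of Psma5, -0.38 (fold 0.521 to 1.11), and the lowest in the pair labelled cKO that of Psma8, a testis form at under 2 CPM in every library. Psma5 was the alpha subunit with the highest cKO over CT ratio under TAC, and is described with the genotype.

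In the constitutive beta ring the subunits differed among themselves. Psmb1 (chromosome 17, 15475021 to 15499751), a non-catalytic subunit, was at 278 CPM at CT baseline, 301 under CT TAC, 181 in the library labelled cKO baseline and 324 in the one labelled cKO TAC. The library labelled cKO baseline was low and the other 3 were alike. The TAC ratio was therefore 0.11 (fold 0.968 to 1.20) in CT and 0.84 (1.55 to 2.06) in the pair labelled cKO. Psmb7, the catalytic subunit that cuts after basic residues, was at 186 and 281 CPM in CT and 202 and 245 in the libraries labelled cKO, with TAC ratios of 0.59 and 0.28, both intervals above 1. Psmb3 and Psmb2 also had positive ratios in both pairs, 0.36 and 0.53 for Psmb3 and 0.28 and 0.41 for Psmb2. Psmb4 had the lowest ratio of the ring in CT, -0.39 (fold 0.619 to 0.930), and Psmb5 the lowest in the pair labelled cKO, -0.28 (0.623 to 1.08).

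As a subgroup, the 3 immunosubunits had the highest median TAC ratio in CT, 1.00, with only the interval of Psmb10 excluding 1. Psmb10 (chromosome 8, 105935735 to 105938444), the most abundant of the 3 per length, was at 68.6 CPM at CT baseline, 137 under CT TAC, 88.7 in the library labelled cKO baseline and 132 in the one labelled cKO TAC. Both TAC libraries were above both baseline libraries, by a log2 ratio of 1.00 (fold 1.66 to 2.43) in CT and 0.57 (1.21 to 1.84) in the pair labelled cKO. The limma difference for TAC was 0.78 (SE 0.20, adjusted p 0.0887). Psmb8 was at 13.3, 21.0, 15.9 and 20.1 CPM in the same order. Its TAC ratios of 0.63 and 0.33 pointed the same way, with intervals of the fold that included 1 (0.983 to 2.52 and 0.746 to 2.18). Psmb9 had only 5, 9, 4 and 7 reads, and its ratios of 1.09 and 0.55 were not distinguishable from 0 at this depth. Psmb9 and Psmb8 lie near each other on chromosome 17 (34181987 to 34187764 and 34197721 to 34201454).

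The constitutive partners did not share that pattern as a set. Psmb5 (chromosome 14, 54614119 to 54618022), the chymotrypsin-like subunit that Psmb8 stands in for, was at 46.0 CPM at CT baseline, 35.9 under CT TAC, 70.3 in the library labelled cKO baseline and 57.6 in the one labelled cKO TAC. Its 2 libraries labelled cKO were above both CT libraries, and its TAC ratios were -0.35 and -0.28 with intervals that included 1. Psmb6, the partner of Psmb9, was at 102, 89.3, 84.4 and 93.0 CPM, with no interval of its ratios excluding 1. The log2 ratio of Psmb8 to Psmb5 was higher in CT TAC than in CT baseline by 1.00 (0.24 to 1.76), that of Psmb10 to Psmb7 by 0.41 (0.09 to 0.73), and that of Psmb9 to Psmb6 by 1.41 (-0.13 to 2.95), with an interval that included 0. In the pair labelled cKO the same changes were 0.62 (-0.19 to 1.43), 0.30 (-0.06 to 0.66) and 0.43 (-1.29 to 2.15), and all 3 intervals included 0. With the sum of the 14 constitutive core subunits in the place of Psmb5, the change of Psmb8 in CT was 0.40 (-0.24 to 1.04), while that of Psmb10 with the same partner was 0.75 (0.47 to 1.02).

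**Figure D3:**
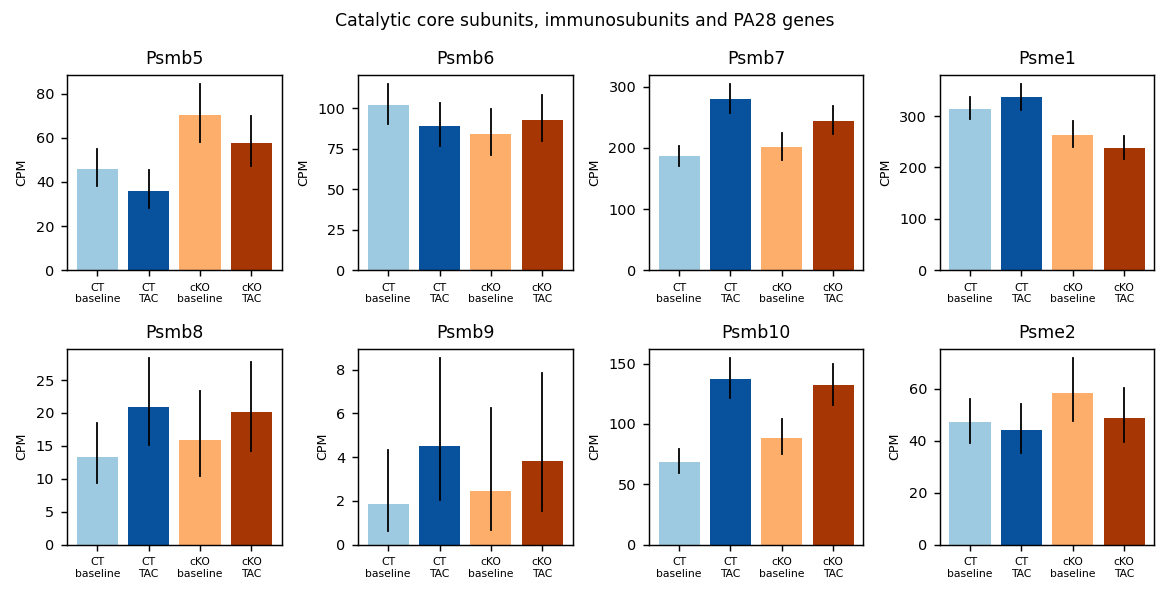
Bars give the CPM (y axis, from 0) of the catalytic subunits Psmb5, Psmb6 and Psmb7, the immunosubunits Psmb8, Psmb9 and Psmb10 and the activator genes Psme1 and Psme2 in the 4 libraries as labelled (x axis), with 95% counting intervals as black lines. Psmb10 is at 137 and 132 CPM in the TAC libraries against 68.6 and 88.7 at baseline, and Psmb5 is highest in the 2 libraries labelled cKO.

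In sum the immunosubunits were at 83.8 CPM at CT baseline, 163 under CT TAC, 107 in the library labelled cKO baseline and 156 in the one labelled cKO TAC, which gave TAC ratios of 0.96 (0.71 to 1.21) and 0.54 (0.27 to 0.82). Immunosubunits are made in quantity by leukocytes. Of 21 leukocyte markers 17 were listed (Cd3e, Cd3g, Cd79a and Nkg7 were not, and S100a8 was among those at 0 in a library). Their summed level was 425 CPM at CT baseline, 660 under CT TAC, 998 in the library labelled cKO baseline and 890 in the one labelled cKO TAC. The leukocyte sum was higher under TAC in CT (0.63), with 14 of 17 markers above 0. In the pair labelled cKO the sum was lower (-0.17), but the markers were split. There 8 lay above 0 and 9 below, with a median of -0.0025. The summed level of the fibroblast markers, 6 of 6 listed, was higher under TAC by 1.32 in CT, where all 6 had ratios above 0, and by 1.05 in the pair labelled cKO, where 5 had. The sum of the endothelial markers, 10 of 10 listed, was higher by 0.33 and 0.77, with 6 and 7 of 10 above 0 and medians of 0.28 and 0.25. The sum of the cardiomyocyte markers had ratios of -0.25 and -0.26, with 7 of 8 below 0 in each pair. The part of these cell types in the proteasome ratios was not tested.

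The ATPases of the regulatory particle, Psmc1 to Psmc6, form the ring that unfolds substrates. Psmc4 had the highest ratio of the 6 in both pairs: it was at 170 CPM at CT baseline, 242 under CT TAC, 180 in the library labelled cKO baseline and 260 in the one labelled cKO TAC, with ratios of 0.50 (fold 1.25 to 1.62) and 0.53 (1.24 to 1.67). The 2 TAC libraries were alike and above the 2 baseline libraries. Psmc5 had the lowest ratio in both pairs, -0.25 (0.738 to 0.958) in CT and 0.01 in the pair labelled cKO. Psmc1, Psmc2 and Psmc6 had ratios of 0.04 to 0.08 in CT and 0.35 to 0.42 in the pair labelled cKO, and only the latter had intervals that excluded 1. Psmc3 was the reverse, at 0.43 in CT and 0.12 in the pair labelled cKO.

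In the rest of the base, Psmd4 (chromosome 3, 95032694 to 95042614), the ubiquitin receptor also known as Rpn10, was at 487 CPM at CT baseline, 744 under CT TAC, 379 in the library labelled cKO baseline and 711 in the one labelled cKO TAC. The TAC libraries lay far above the baseline libraries without overlap of the counting intervals. The ratios were 0.61 (fold 1.42 to 1.65) in CT and 0.91 (1.70 to 2.07) in the pair labelled cKO, the largest of the regulatory particle in that pair. Psmd4 has shared reads, so part of this signal may belong to another position. The scaffold subunits Psmd1 and Psmd2 had small ratios, 0.06 and -0.07 in CT and 0.24 and 0.18 in the pair labelled cKO.

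The lid holds the deubiquitinase Psmd14 (chromosome 2, 61711694 to 61800376), which cuts ubiquitin chains from the substrate. It was at 75.6 CPM at CT baseline, 133 under CT TAC, 74.0 in the library labelled cKO baseline and 109 in the one labelled cKO TAC. Both baseline libraries were alike and both TAC libraries higher, by 0.81 (fold 1.46 to 2.12) in CT, the highest ratio of the lid there, and by 0.56 (1.17 to 1.87) in the pair labelled cKO. The limma difference for TAC was 0.68 (SE 0.20, adjusted p 0.123). Psmd11, a lid scaffold subunit, was at 120, 163, 94.8 and 159 CPM, with ratios of 0.44 (1.16 to 1.59) and 0.74 (1.37 to 2.05), the latter the highest of the lid in the pair labelled cKO. Among the 8 lid genes of the set, Psmd12 had the lowest ratio in both pairs, -0.27 in CT (0.694 to 0.985) and 0.02 in the pair labelled cKO.

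The symbol pattern leaves out the particle subunits Adrm1 and Shfm1. Their TAC ratios were -1.28 and 0.48 in CT, and 0.33 and -0.05 in the pair labelled cKO. Of the 17 matching genes of base and lid together, 12 had TAC ratios above 0 in CT (median 0.06). In the pair labelled cKO 17 of 17 had (median 0.35). The summed level was 3345 CPM at CT baseline, 3842 under CT TAC, 3130 in the library labelled cKO baseline and 4052 in the one labelled cKO TAC. That sum gave ratios of 0.20 (0.16 to 0.24) and 0.37 (0.32 to 0.42), and in CT it lay above the median over genes. A large part of the change in the sum came from Psmd4, which has shared reads. Psmd4 alone was at 487 CPM at CT baseline and 744 under CT TAC, and at 379 and 711 in the libraries labelled cKO. For the core particle the summed level was 1535, 1827, 1467 and 1820 CPM, with TAC ratios of 0.25 (0.19 to 0.32) and 0.31 (0.23 to 0.39).

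The assembly chaperones had fewer reads than most subunits, and their ratios are less precise. Of the chaperones that assemble the base, Psmd5 was at 41.9 CPM at CT baseline, 35.9 under CT TAC, 28.7 in the library labelled cKO baseline and 44.6 in the one labelled cKO TAC. The library labelled cKO baseline was the lowest, and the TAC ratio was 0.62 (fold 1.07 to 2.27) there and -0.22 (0.629 to 1.16) in CT. Psmg1, a chaperone of the alpha ring, was at 27.4, 26.5, 30.6 and 19.0 CPM, lowest in the library labelled cKO TAC, with a ratio of -0.67 (0.392 to 0.978) in that pair and -0.05 in CT. Psmg3 and Psmg4, further core chaperones, had ratios between -0.13 and 0.68 with intervals that included 1 in both TAC pairs, as did those of Psmd9 and Psmd10. All 3 base chaperone ratios lay below 0 in CT (-0.36 to -0.22) and above 0 in the pair labelled cKO (0.23 to 0.62).

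Among the activators, which open the core without ubiquitin, Psme3 (PA28 gamma) stood out on the lower side. It was at 109 CPM at CT baseline, 76.9 under CT TAC, 113 in the library labelled cKO baseline and 77.8 in the one labelled cKO TAC. Both TAC libraries were below both baseline libraries, with ratios of -0.51 (fold 0.575 to 0.857) and -0.53 (0.551 to 0.864), short of 1.5-fold (limma difference -0.52, SE 0.20, adjusted p 0.230). Psme1 and Psme2, the interferon-inducible PA28 alpha and beta, did not share the pattern of Psmb10: Psme1 was at 315, 336, 264 and 238 CPM and Psme2 at 47.1, 43.9, 58.4 and 48.7. Their TAC ratios lay between -0.26 and 0.10, with all 4 intervals including 1. Psme4 (PA200), a large nuclear activator and the gene with the highest mean CPM of the set, had ratios of -0.00 and 0.12. The inhibitor Psmf1 had 0.29 and 0.17, from shared reads. Psme2b, at 24.8, 59.4, 33.0 and 44.6 CPM, had the highest TAC ratio in CT, 1.24 (1.76 to 3.28), while the near-identical Psme2 was level, so the pair is uncertain.

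Levels can be set beside each other between genes only per exon length (GENCODE vM21). Per kilobase of exon the median of the core genes was 88.1 CPM, of the regulatory particle 76.6 and of the immunosubunits 10.8. Psmd4 was the highest of the regulatory particle at 316 and Psmb7 of the core at 197, while Psmd13 was the lowest of the former at 40.0 and Psma8 of the latter at 1.03. Within the regulatory particle the lid genes (median 66.0) lay below the ATPases (135). The base chaperones (median 5.21) and the core chaperones (15.8) had lower medians than the genes of the core and of the regulatory particle. The core chaperone median lay above that of the immunosubunits. Psma3 (6.19) and Psma8 lay below Psmg1 (24.8), Psmg2 (19.2) and Psmg4 (12.4). The Psma3 value comes from shared reads divided by 2846 exon bases, so its place below the chaperones is uncertain. Psmb10 at 81.4 was in the range of the constitutive subunits, whereas Psmb8 and Psmb9 were at 10.8 and 2.33.

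**Figure D4:**
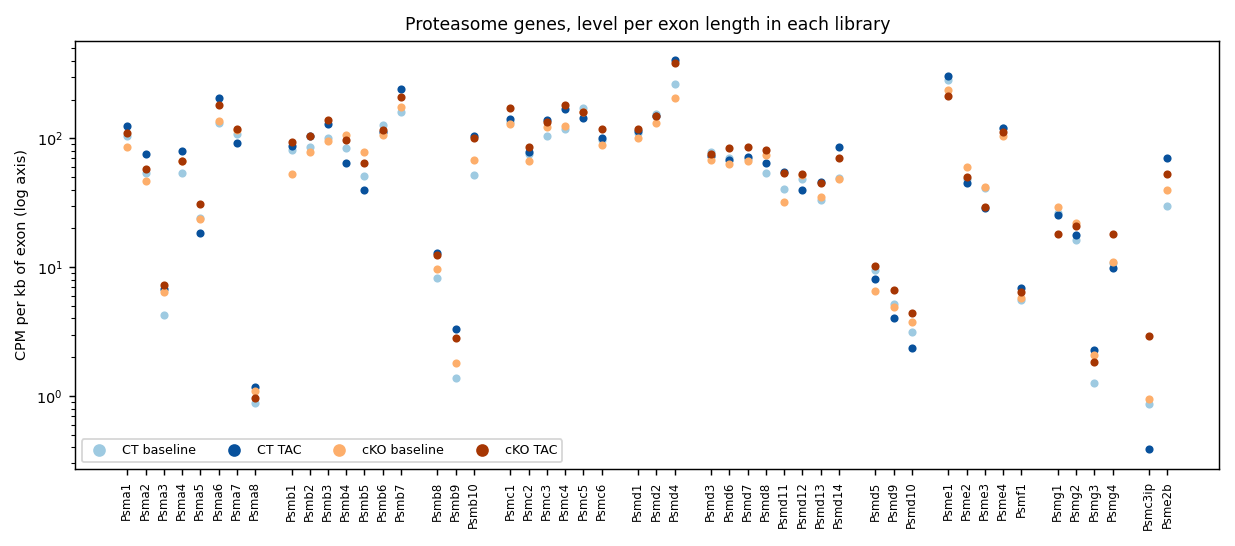
The level of each proteasome gene (x axis, grouped by role) is given as CPM per kilobase of exon on a log axis (y axis), with 1 point for each of the 4 libraries as labelled. The points of a gene lie close together compared with the spread between genes, from Psma8 and Psmg3 near the bottom to Psmd4 and Psme1 at the top.

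The genotype comparison asks how hearts labelled cKO differ from CT in the same state. At baseline, 1 proteasome gene was past 1.5-fold on the higher side (Psmb5), where 5.85% of all genes were, and 1 on the lower side (Psmb1), where 4.96% were. Under TAC 2 were higher (Psma5 and Psmb5), against 6.07% of all genes, and 0 lower, against 6.03%. At 2-fold there was none in either state, where 5.07% and 5.02% of all genes were past. The medians over the 49 genes were 0.04 at baseline, with 26 above 0, and 0.06 under TAC, with 29 above 0, and those of all genes 0.00 and 0.01. Scaling to total counts adds 0.09 to every genotype ratio, and with it the Psmb1 ratio at baseline (-0.53) was no longer past 1.5-fold, while the count of genes past it under TAC went from 2 to 4, with Psmb4 and the sparse Psmc3ip added.

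Psmb5 was the one gene past the fold in both states. Its cKO over CT ratios were 0.61 (fold 1.18 to 1.99) at baseline and 0.67 (1.18 to 2.19) under TAC, and the limma difference for cKO was 0.64 (SE 0.22, adjusted p 0.550). Psmb4, a non-catalytic beta subunit, was at 100 CPM at CT baseline, 76.4 under CT TAC, 126 in the library labelled cKO baseline and 114 in the one labelled cKO TAC. Both libraries labelled cKO were above both CT libraries, by 0.33 (1.04 to 1.51) and 0.58 (1.21 to 1.85). Psmd8, a lid subunit, was also higher in both states, by 0.46 and 0.35, with both intervals above 1.

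Psma5, at 30.0 CPM at CT baseline, 23.0 under CT TAC, 29.4 in the library labelled cKO baseline and 38.6 in the one labelled cKO TAC, was past the fold under TAC, with a ratio of 0.74 (fold 1.14 to 2.49). The baseline libraries were alike and the TAC libraries lay on either side of them. Psme1 was lower in both libraries labelled cKO, at -0.26 (0.744 to 0.942) at baseline and -0.50 (0.625 to 0.798) under TAC. Psmd4 and Psmb1 were lower in the library labelled cKO baseline, at -0.36 (0.706 to 0.857) and -0.62 (0.567 to 0.745), and close to CT under TAC. The 2 genotype ratios of a gene, which share no library, lay on the same side of 0 for 40.8% of the proteasome genes and for 54.2% of all listed genes.

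**Figure D5:**
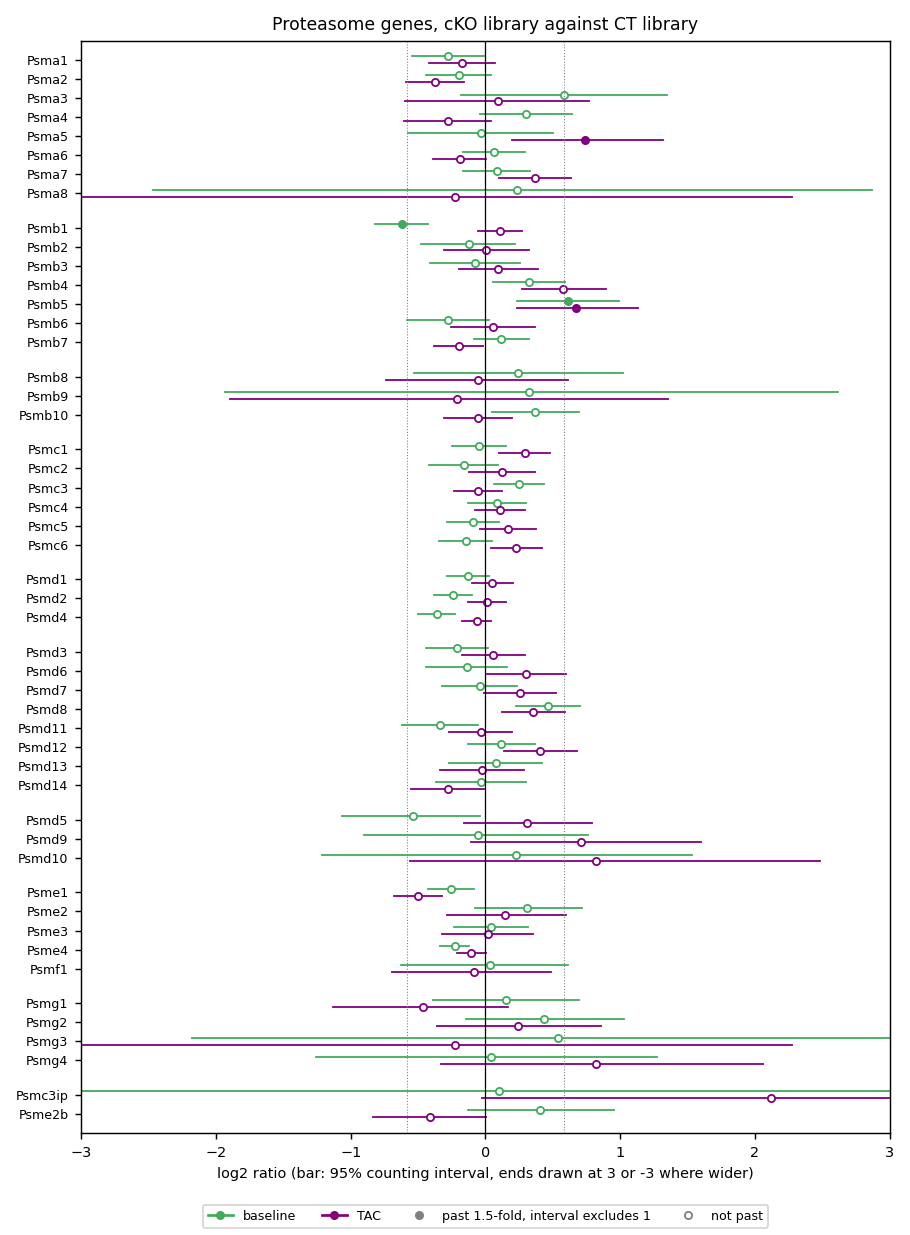
The log2 ratio of the library labelled cKO over the CT library (x axis) is plotted for each proteasome gene (y axis, grouped by role) at baseline (green) and under TAC (purple); bars are 95% counting intervals, filled points are at least 1.5-fold apart with an interval that excludes 1, and dotted lines mark 1.5-fold. Psmb5 is filled in both states, at 0.61 and 0.67, and Psmb1 is filled at baseline (-0.62) and Psma5 under TAC (0.74).

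Apart from Psma5, Psmb1 and Psmb5, no proteasome gene was past the fold between genotypes on the deposited scale. The alpha ring ran from -0.28 (Psma1) to 0.58 (Psma3) at baseline and from -0.37 (Psma2) to 0.74 (Psma5) under TAC, and the lowest beta subunit under TAC was Psmb7 at -0.20. The ATPases ran from -0.16 (Psmc2) to 0.25 (Psmc3) at baseline and from -0.06 (Psmc3) to 0.29 (Psmc1) under TAC, so Psmc3 was the highest in one state and the lowest in the other. In the lid, Psmd11 was lowest at baseline (-0.34) and Psmd14 under TAC (-0.28), while Psmd12 was highest under TAC (0.41). Psmd1, in the base, was at -0.13 and 0.05. The base chaperone Psmd5 was at -0.54 at baseline (fold 0.478 to 0.973) and 0.31 under TAC, and Psmd10, from few reads, at 0.23 and 0.82. The core chaperones Psmg3 (0.54 at baseline), Psmg4 (0.04 at baseline and 0.82 under TAC) and Psmg1 (-0.46 under TAC) all had intervals that included 1, as had Psme2 (0.31 and 0.15).

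By sum, the regulatory particle was lower in the library labelled cKO baseline than in CT baseline, with a log2 ratio of -0.10 (-0.15 to -0.05), a difference that went to -0.00 when libraries were scaled to total counts. Under TAC it was higher by 0.08 (0.03 to 0.12), and by 0.17 with total counts. The core particle differed by -0.06 (-0.14 to 0.01) and -0.01 (-0.07 to 0.06), and both became positive, 0.03 and 0.09, with total counts. The immunosubunits were higher in the library labelled cKO baseline by 0.35 (0.06 to 0.64) and differed under TAC by -0.06 (-0.29 to 0.17), or 0.04 with total counts. The leukocyte markers were higher by 1.23 and 0.43 in the libraries labelled cKO, and their part in the immunosubunit ratios was not tested.

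The TAC ratio of each gene was set against itself in the other genotype pair, with a counting interval of the difference. The interval excluded 0 on the side of a larger ratio in the pair labelled cKO for 8 proteasome genes (Psma5, Psmb1, Psmc1, Psmc6, Psmd2, Psmd4, Psmd5 and Psmd6), where 9.06% of all genes were, and on the smaller side for 6 (Psma4, Psmb7, Psmb10, Psmc3, Psme1 and Psme2b), where 9.84% were. Of the 8, 5 belong to the regulatory particle. Of these 14 genes the furthest from 0 were Psmd5, 0.84 (0.18 to 1.51), Psme2b, -0.82 (-1.48 to -0.17), Psma5, 0.77 (0.03 to 1.51), and Psmb1, 0.73 (0.47 to 0.98). For Psmd4 the difference was 0.30 (0.12 to 0.47) and for Psmb10 -0.43 (-0.83 to -0.03). The interaction has no residual degree of freedom with 1 mouse a group, so these differences have no test across mice.

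Exon length and base composition were set beside the ratios. GC content was that of the longest transcript of a gene, and exon length that of all its exons together. Over the 40 genes of at least 20 CPM, the Spearman correlation of the ratio with GC content was -0.21 in CT and -0.31 in the pair labelled cKO. With exon length the Spearman correlation was -0.08 and 0.19. Over 5764 genes of that level it was -0.13 and -0.06 for GC, and -0.15 in both for length. For the genotype ratio at baseline the correlations were 0.32 with GC and -0.40 with length among the proteasome genes, against -0.02 and -0.04 among all genes. Psmb5, highest in that ratio, has 899 exon bases and a longest transcript with 56.6% GC. Psmb1, lowest, has 3427 exon bases and a longest transcript with 49.2% GC. These correlations are across genes of the same libraries, which are not independent replicates.

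Genes of the pathway outside the set were counted by the same fold. The 16 partners were shuttle factors, chaperones, proteasome-bound enzymes and the subunits Adrm1 and Shfm1. Of these 16, 2 were past 1.5-fold higher and 4 lower under TAC in CT, where 11.4% and 9.81% of all genes were. In the pair labelled cKO 1 was higher and 1 lower, where 7.48% and 6.54% were. Pomp, the maturation chaperone that is needed to close the core particle, was at 101 CPM at CT baseline, 316 under CT TAC, 103 in the library labelled cKO baseline and 176 in the one labelled cKO TAC. Baseline libraries were alike, and Pomp was higher under TAC by limma (log2 difference 1.20, SE 0.22, adjusted p 0.0260). Its TAC ratios were 1.64 (fold 2.71 to 3.61) in CT and 0.77 (1.41 to 2.07) in the pair labelled cKO. Without a trend of variance with level, limma called 0 of 12408 genes for TAC, so the call of Pomp depends on that setting. Adrm1, a ubiquitin receptor of the regulatory particle, was at 69.7 CPM at CT baseline, 28.5 under CT TAC, 36.7 in the library labelled cKO baseline and 46.2 in the one labelled cKO TAC. CT baseline was far above the other 3, with a TAC ratio of -1.28 in CT and 0.33 in the pair labelled cKO. The shuttle factor gene Ubqln2 and the proteasome-binding Zfand5 were lower in CT TAC, at -0.96 and -0.85, and Ublcp1, a phosphatase of the proteasome, at -1.01 from 34 and 12 reads.

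Nfe2l1, the transcription factor that controls proteasome genes, was at 714 CPM at CT baseline, 651 under CT TAC, 582 in the library labelled cKO baseline and 567 in the one labelled cKO TAC, from shared reads. Its TAC ratios were -0.13 and -0.04, and limma gave -0.08 (SE 0.17, adjusted p 0.841). Of the 13 genes of its control list, 1 was past the fold higher and 1 lower in CT (11.4% and 9.81% of all genes), and 2 and 1 in the pair labelled cKO (7.48% and 6.54%). Ngly1, the enzyme that removes sugars from Nfe2l1, was higher in both TAC libraries, by 0.78 (fold 1.35 to 2.22) and 0.85 (1.32 to 2.51), with an adjusted p of 0.101 by limma. The small Maf partner Maff, with 10 reads in CT baseline and 0.25 in CT TAC, is too sparse for a ratio, yet it is the 1 gene counted as lower in CT. Mafk, another, was higher by 1.39 in the TAC library labelled cKO, from 9 to 28 reads, and the ubiquitin ligase Syvn1 was lower there, at -1.23.

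Rps27a, a fusion of ubiquitin with a ribosomal protein, was lower under TAC by limma (log2 difference -1.62, SE 0.26, adjusted p 0.0127). It has many processed copies in the genome, so its count is uncertain. The call of Rps27a was also absent without the trend of variance with level. Of 14 antigen processing genes 2 were higher under TAC in CT (B2m, 1.09, and Calr, 0.62), where 11.4% of all genes were, and 2 were lower in the pair labelled cKO (Calr, -1.20, and Pdia3, -1.17), where 6.54% were. In the library labelled cKO baseline 4 were higher than in CT baseline (Pdia3, B2m, Calr and H2-K1, by 0.70 to 1.11), with 5.85% of all genes.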

How the data were processed

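The 4 files held log2 CPM values for 12408 genes, as deposited by the authors. Per the submitters' processing notes the authors' tools included HISAT2, CASAVA and edgeR, on the mm10 build, with no roles or versions stated. For the counter, annotation and gene filter nothing was given in the sources used here. The values fall on a grid in each library, from which reads were recovered (88.6% to 89.0% of values whole within 0.01), with about 1 scaled read added before the logarithm. A fold change on this scale understates that of low genes. Fractional reads remained for 2449 genes.

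Pairs of libraries were compared by the difference of log2 CPM, with Clopper-Pearson 95% intervals of the ratio from rounded reads. Intervals of differences of ratios used 0.5 added reads. The test across genes was limma-trend (limma 3.58.1 under R 4.3.3), the planned choice for log2 values. On simulated data for TAC, with an assumed spread between mice, it recovered 83.7 of 100 4-fold and 15.7 of 100 2-fold changes, with 16.3 false calls. The share of false calls was thus above the one that an adjusted p under 0.05 aims at. That limit also applies to the calls of Pomp and Rps27a. Positions, exon lengths and GC content came from GENCODE vM21, and promoters from RefSeq. The proteasome genes, their roles, the pathway and marker lists, the tests and the naming rule (extremes of each subgroup, catalytic subunits, PA28 genes and genes past the fold) were chosen with earlier results of these data known. Alternatives were fold limit, interval level, scaling, added reads, low-value filters, fractional reads, model terms and left-out libraries. Some genes of the pathway and marker lists are not reported here.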

Additional observations from a re-analysis of the deposited data

How the results depend on the processing

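No paired analysis was possible because each group held 1 mouse and the labels give no replicate numbers. With a fold limit of 2 the proteasome genes past it numbered 1 under TAC in CT and 0 in the other 3 pairs. With a 99% interval 3 remained past 1.5-fold in the TAC pair labelled cKO, since Psmd5 and Psmg1 were no longer past. Scaling to total counts gave 1 gene for genotype at baseline and 4 under TAC, where Psmb4 and Psmc3ip were added. It also moved the summed genotype ratios to 0.0292 and 0.0911 for the core particle and to -0.0016 and 0.1738 for the regulatory particle, by its shift of 0.09. The median over genes was 0.0627 for the core in the genotype ratio at baseline and 0.0637 for the regulatory particle under TAC in CT. With the 14 constitutive core subunits as partner, the change of Psmb8 under TAC in CT was 0.40, with an interval that included 0. With the same partner, the cKO over CT change of Psmb10 at baseline was 0.44, with an interval that excluded 0. Limma called 1 gene for TAC at a mean CPM of at least 5 and 0 in every other setting, left-out libraries included. Among the values that stayed on their side of the threshold, signs still changed in genotype comparisons where intervals included 0. With the 14-subunit partner, the cKO over CT change of Psmb8 at baseline went from -0.35 to 0.33. That of Psmb10 under TAC went from 0.14 to -0.05. The cKO over CT ratio of the immunosubunit sum under TAC went from -0.06 to 0.04 with total counts. For the core particle under TAC the cKO over CT ratio was -0.01 by sum and 0.06 by its median. The setting with 1 read added for differences between TAC ratios, and that with genes of at least 20 CPM, were chosen after seeing the data. Genes under about 5 CPM, such as Psmb9, Psma8, Psmg3 and Psmc3ip, are limited by depth.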
